A study of Mus musculus with 12 samples.

Results

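Kruppel-like factors are transcription factors that share a block of zinc fingers at the carboxyl end and bind GC-rich and CACCC sequences in promoters. The 10 members followed here in 4T1 tumours were Klf2, Klf3, Klf4, Klf5, Klf6, Klf7, Klf10, Klf11, Klf13 and Klf15. They were taken by symbol from an mRNA table of 35453 rows, all 10 were found, and none was at 0. Klf9 was set beside them as a relative.

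Mice of the stress group were restrained daily, 2 hours at a time, over 28 days without a break, and their tumours were compared with those of untreated mice. Each group had 3 mRNA libraries. All mice were Balb/c and carried tumours of 4T1, an established mouse mammary carcinoma line, and all tumours were taken 35 days after inoculation. Whole tumours were extracted, so host stroma, vessels and immune cells contributed RNA. The labels name no separate animal for each tumour, and p-values measure the spread between these libraries. The values were deposited on a log scale, were taken as log2 and as already normalized, and are of unknown depth. Weak genes varied less: those with means of 2 to 3 spanned a median of 0.0773 across the 6 libraries, against 0.26 for all genes tested. Changes in weakly expressed genes may therefore be understated, which was not tested. Levels are not compared between genes because it is not stated whether they are per length.

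The family falls into groups by the partners its members recruit. Klf2, Klf4, Klf5, Klf6 and Klf7 mostly activate transcription through acetylases, Klf3 represses through the CtBP corepressors, and Klf10, Klf11 and Klf13 can repress through Sin3A. Several are early response genes whose mRNA changes quickly with growth factors, cytokines, flow or hormones. In mammary and other epithelia Klf4 is linked to growth arrest and differentiation and Klf5 to proliferation.

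In the stressed tumours 7 of the 9 members tested stood 0.15 to 0.30 higher on the log2 scale, and Klf2 and Klf10 differed by 0.012 and -0.016. The median absolute difference over all genes tested was 0.083. A positive difference was found in 8 of the 9, against 50.6% of all genes tested. Control replicate 1 held the lowest value in 6 of the 9 members and in 13.5% of all genes. The median difference of the members was 0.144 without control replicate 1 and 0.268 without control replicate 2. No member passed the threshold of 0.05 on the limma p adjusted over all 14098 genes tested, where 5 genes, or 0.0355%, were called. At an unadjusted limma p under 0.05 there were 3 members, Klf3, Klf7 and Klf13, all higher in stress, where 17.4% of all genes tested had such a p and 8.26% had one with a higher value in stress. After quantile normalization 0 members had such a p. The groups did not overlap in 1 member, Klf13 (0 members after quantile normalization and 2 after median centring), against 24.3% of all genes tested. The median difference of the 9 members was 0.19, and that of all genes tested was 0.0014. No test of the members as a list was made, and they were chosen with earlier results of these data known. Of the 4 other KLF genes tested, Klf9 among them, 1 was higher and 3 lower in stress, with a median difference of -0.16. Klf15 had a mean below the lowest mean log2 value tested, 4, and is described by its values.

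The promoters of the members that the results turn on are shown first. RefSeq promoters (GRCm38.p6, 250 bases before to 50 after the start) were matched for 8 of the 10 members, all but Klf5 and Klf10. The lines below give Klf3, Klf13 and Klf7, the members with the smallest p-values, Klf4, the member with the largest difference, and Klf2, the member with the difference nearest 0. Capitals mark the GC box GGGCGG and the CACCC box CCACCC on either strand, the letters that this family and the SP factors bind; where boxes overlap, the capitals run on.
Klf3: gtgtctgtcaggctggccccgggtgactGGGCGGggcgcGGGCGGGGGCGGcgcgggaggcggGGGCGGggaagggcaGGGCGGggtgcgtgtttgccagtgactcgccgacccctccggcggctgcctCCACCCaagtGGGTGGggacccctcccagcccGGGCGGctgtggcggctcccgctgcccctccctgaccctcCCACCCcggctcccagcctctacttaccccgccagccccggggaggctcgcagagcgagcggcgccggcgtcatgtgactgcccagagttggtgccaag
Klf13: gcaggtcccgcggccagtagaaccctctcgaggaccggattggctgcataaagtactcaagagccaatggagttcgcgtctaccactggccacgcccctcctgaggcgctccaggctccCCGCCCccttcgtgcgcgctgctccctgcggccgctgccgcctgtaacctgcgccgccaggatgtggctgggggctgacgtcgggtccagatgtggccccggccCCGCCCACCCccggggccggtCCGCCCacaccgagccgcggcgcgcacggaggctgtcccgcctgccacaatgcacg
Klf7: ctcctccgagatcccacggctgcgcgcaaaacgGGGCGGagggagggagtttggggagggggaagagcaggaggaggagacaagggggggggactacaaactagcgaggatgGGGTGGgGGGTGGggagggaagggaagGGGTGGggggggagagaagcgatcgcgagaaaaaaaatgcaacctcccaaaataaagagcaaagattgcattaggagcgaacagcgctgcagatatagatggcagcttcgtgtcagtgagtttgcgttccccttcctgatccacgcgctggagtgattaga
Klf4: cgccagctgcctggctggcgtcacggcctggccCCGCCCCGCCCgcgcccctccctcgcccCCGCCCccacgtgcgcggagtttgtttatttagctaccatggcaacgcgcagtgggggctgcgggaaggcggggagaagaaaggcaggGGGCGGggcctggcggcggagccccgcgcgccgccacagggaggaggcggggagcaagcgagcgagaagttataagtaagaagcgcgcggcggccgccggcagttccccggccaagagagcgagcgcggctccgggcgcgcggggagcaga
Klf2: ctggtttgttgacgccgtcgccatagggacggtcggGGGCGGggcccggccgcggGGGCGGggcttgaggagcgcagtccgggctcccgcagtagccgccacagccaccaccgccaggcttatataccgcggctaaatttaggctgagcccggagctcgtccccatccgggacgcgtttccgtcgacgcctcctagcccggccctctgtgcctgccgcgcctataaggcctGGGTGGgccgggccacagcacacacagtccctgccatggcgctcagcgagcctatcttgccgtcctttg
These windows lie at chr5:64803271-64803570 (plus strand), chr7:63938866-63939165 (minus strand), chr1:64121340-64121639 (minus strand), chr4:55532426-55532725 (minus strand) and chr8:72318812-72319111 (plus strand). Of the 8 members with a promoter, 8 held a GC box, as did 35.7% of 32851 mouse promoters of the same length. The CACCC box was found in 4, those of Klf2, Klf3, Klf7 and Klf13, against 31.5% of all promoters. Klf3 had 6 GC boxes and 3 CACCC boxes, Klf13 had 3 and 1, Klf7 had 1 and 3, Klf4 had 4 and 0, and Klf2 had 2 and 1. The boxes are letters in GC-rich DNA: bases G and C made up 76.7% of the Klf3 window and 58.3% of the Klf7 window, against a median of 52.7% for all promoters. Klf2 and Klf4 were shown because of their differences, and any relation between boxes and differences was not tested.

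Klf4, Klf6, Klf11 and Klf15 held the E-box CACGTG, found in 7.15% of all promoters. The CCAAT box CCAAT, in 37.4% of all, was in Klf6, Klf11, Klf13 and Klf15. No member window held the cAMP response element TGACGTCA or the TATA box TATAAA, which 1.79% and 13.6% of all promoters held. Every motif was searched on both strands.

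Among the activators, Klf4 had the largest difference. Klf4, a factor of epithelial differentiation and one of the reprogramming factors of stem cell biology, had log2 values of 9.22, 9.15 and 9.47 in stress replicates 1 to 3, against 8.75, 9.24 and 8.95 in control replicates 1 to 3. Stress replicate 3 was the highest library and control replicate 1 the lowest, and control replicate 2 lay above stress replicates 1 and 2. The means were 9.28 ± 0.17 in stress and 8.98 ± 0.25 in control (SD, n = 3 each). The difference was 0.30 ± 0.14 (SE; 1.23-fold, 95% interval -0.020 to 0.62, limma adjusted p = 0.312). It was 0.19 without control replicate 1.

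Klf5, which promotes proliferation in epithelial cells, had 10.01, 9.93 and 10.23 in stress, against 9.78, 10.07 and 9.76 in control. Its order of libraries was close to that of Klf4: stress replicate 3 was highest, control replicate 2 was the highest control, and the groups overlapped through that control. The difference was 0.19 ± 0.11 (SE; 1.14-fold, 95% interval -0.067 to 0.44, limma adjusted p = 0.41). It was 0.10 without stress replicate 3 and 0.29 without control replicate 2.

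Klf6, an early response gene that can act as a tumour suppressor, had 11.71, 11.85 and 11.76 in stress, against 11.28, 11.85 and 11.54 in control. The stress libraries lay within 0.138 of each other and the controls spread over 0.573, from below every stress library to just above the highest. The difference was 0.22 ± 0.13 (SE; 1.16-fold, 95% interval -0.10 to 0.53, limma adjusted p = 0.441). It was 0.077 without control replicate 1 and 0.36 without control replicate 2.

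Klf7, known for its part in the growth of nerve cells and in adipocyte differentiation, had 10.45, 10.22 and 10.50 in stress, against 10.01, 10.25 and 10.23 in control. Stress replicates 1 and 3 stood above all controls, and stress replicate 2 lay just below control replicates 2 and 3. The difference was 0.22 ± 0.095 (SE; 1.17-fold, 95% interval 0.0018 to 0.45, unadjusted p = 0.0486, limma adjusted p = 0.283). It was 0.15 without control replicate 1. Klf7 on chromosome 1 (64029447 to 64122282, minus strand) is overlapped on the other strand by Gm13748 and Gm26649, and the labels do not say whether strand was kept.

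Klf2, the flow-induced factor of endothelium that also keeps T cells quiescent, had 7.83, 8.06 and 8.01 in stress, against 7.80, 8.10 and 7.98 in control. The libraries of both groups covered nearly the same range. The difference was 0.012 ± 0.099 (SE), and the 95% interval of -0.22 to 0.24 bounds what these libraries can show (limma adjusted p = 0.964). Leaving out single libraries turned its sign, to -0.069 at the lowest and 0.083 at the highest.

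Markers of endothelium, where Klf2 and Klf4 act, stood lower in the same stressed tumours: all 10 of 10 had a negative difference, with a median of -0.31. Of these markers 7 had an unadjusted limma p under 0.05, as had 9.15% of all genes tested in the lower direction, and none was called. Their mean log2 value was 8.15 to 8.34 in stress libraries and 8.47 to 8.72 in control libraries, with no marker at 0. In whole tumours fewer cells of a type and less RNA per cell cannot be told apart. Their part in the Klf2 and Klf4 values was not tested.

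**Figure D1:**
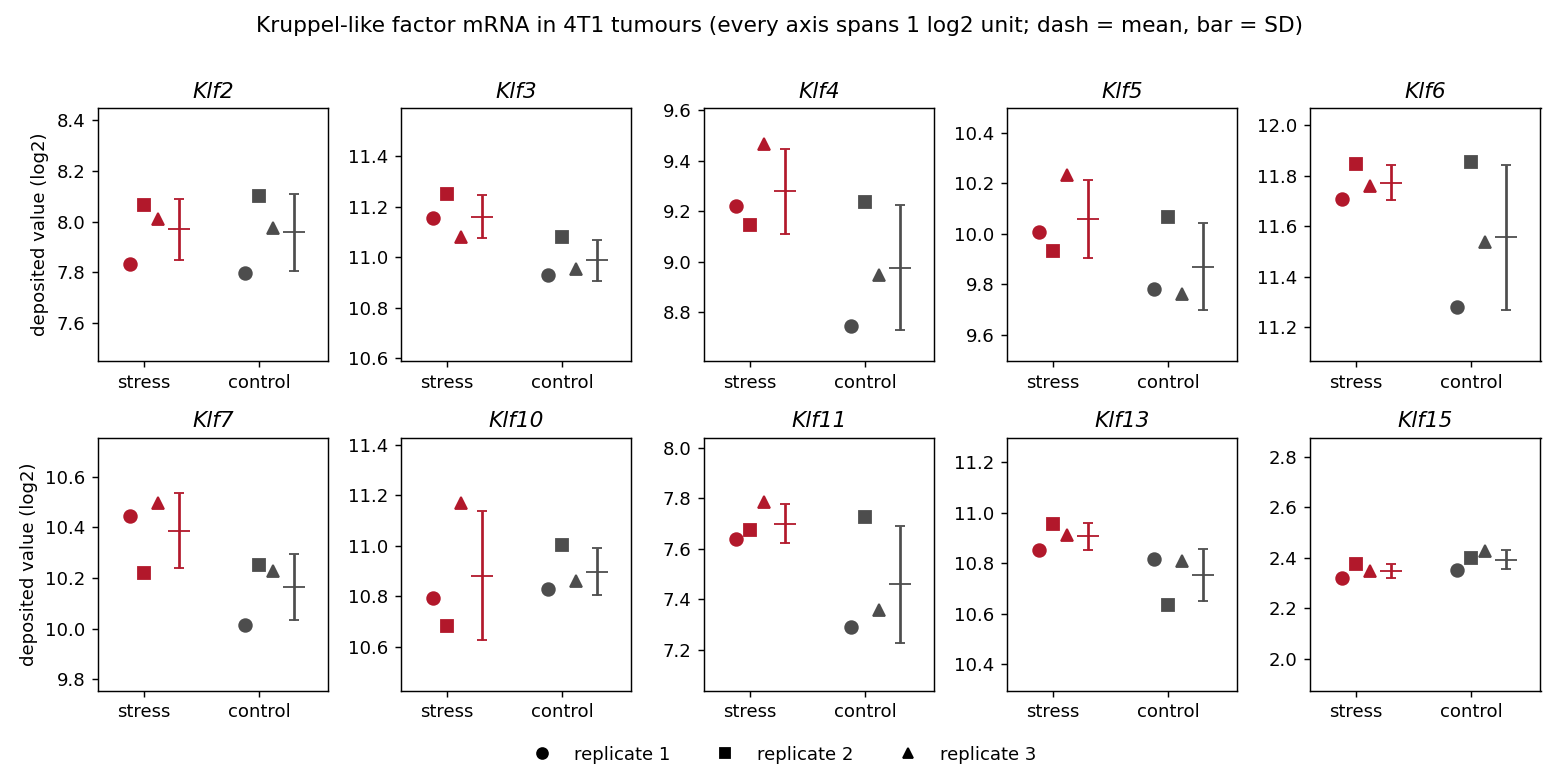
Deposited log2 value of each of the 10 members (vertical axes, 1 log2 unit in every panel) in the 3 stress and the 3 control libraries (horizontal axis), with symbols for the replicate number, a dash for the group mean and a bar for the SD. In the values as deposited Klf13 is the one member whose stress libraries all lie above its control libraries (its groups overlap after quantile normalization), and the stress and control libraries of Klf2 cover nearly the same range.

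Klf3 is the CtBP-binding repressor of the set, known in mice for roles in fat, B cells and red cells. It had 11.15, 11.25 and 11.08 in stress, against 10.93, 11.08 and 10.95 in control. Stress replicate 3 and control replicate 2 were level at 11.08, and the other stress libraries lay above all controls. The difference of 0.17 ± 0.065 (SE; 1.13-fold, 95% interval 0.021 to 0.33) had the smallest p of the 9 members (unadjusted p = 0.031, limma adjusted p = 0.243). It ran from 0.13 to 0.22 when single libraries were left out. Klf3 lies on chromosome 5 (64803388 to 64832901, plus strand), where Gm20033 overlaps it on the other strand and C230096K16Rik on the same one.

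Klf8 and Klf12, the other CtBP-binding factors, did not share that direction. Klf8 had 5.26, 5.17 and 5.38 in stress, against 5.87, 5.41 and 5.39 in control. All stress values lay below all controls, by the narrowest margin between stress replicate 3 and control replicate 3, and the difference was -0.28 ± 0.13 (SE; limma adjusted p = 0.327). Klf12 differed by -0.042 ± 0.10 (SE; limma adjusted p = 0.863).

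Among the Sin3A-binding members, Klf13 had the clearest separation. Klf13, also known as RFLAT-1 for its control of the chemokine gene Ccl5 in T cells, had 10.85, 10.96 and 10.91 in stress, against 10.82, 10.64 and 10.81 in control. Every stress library lay above every control, the nearest pair being stress replicate 1 and control replicate 1. The difference was 0.15 ± 0.064 (SE; 1.11-fold, 95% interval 0.0025 to 0.30, unadjusted p = 0.0472, limma adjusted p = 0.281). It was 0.094 without control replicate 2, and after quantile normalization it was 0.12 and the groups overlapped. Klf13 on chromosome 7 (63886351 to 63938915, minus strand) is overlapped on the other strand by E030018B13Rik and Gm27252.

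Klf11, a TGF-beta-inducible early gene that restrains growth, had 7.64, 7.68 and 7.79 in stress, against 7.29, 7.73 and 7.36 in control. The stress libraries were tight, control replicates 1 and 3 lay well below them, and control replicate 2 lay inside their range. The difference was 0.24 ± 0.12 (SE; 1.18-fold, 95% interval -0.037 to 0.52, limma adjusted p = 0.345). It was 0.16 without control replicate 1 and 0.37 without control replicate 2.

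Klf10, its close relative and the first TGF-beta-inducible early gene, had 10.79, 10.68 and 11.17 in stress, against 10.83, 11.00 and 10.86 in control. Stress replicate 3 was the highest library and stress replicate 2 the lowest, so the controls lay inside the stress range. The difference was -0.016 ± 0.12 (SE; 95% interval -0.31 to 0.28, limma adjusted p = 0.962). The value was -0.16 with stress replicate 3 left out and 0.084 with stress replicate 2 left out.

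Klf15 regulates amino acid, fat and glucose metabolism in muscle, liver and fat tissue and is induced by glucocorticoids there. Its log2 values were 2.32, 2.38 and 2.35 in stress, against 2.35, 2.40 and 2.43 in control. All values lay within 0.106, a span near the median of 0.0773 among genes with means of 2 to 3. Tested without the filter on low values, it differed by -0.044 ± 0.026 (SE; limma adjusted p = 0.513). Markers of skeletal muscle, one of its main tissues, had 10 of 10 negative differences, none called, and a mean log2 value of 7.46 to 8.69 in stress libraries and 8.35 to 9.58 in control libraries, with no marker at 0. Of 6 adipocyte markers 3 were tested and all 3 were lower in stress, none called. The mean of the 6 was 5.10 to 5.37 in stress libraries and 5.32 to 6.03 in control libraries. The part of either tissue in the Klf15 values was not tested.

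Read by library, several members had the same lowest or highest library, and others did not. Control replicate 1 held the lowest of the 6 values in 6 of the 9 members tested, Klf2, Klf3, Klf4, Klf6, Klf7 and Klf11, and did so in 13.5% of all genes tested. Stress replicate 3 held the highest value in 5, Klf4, Klf5, Klf7, Klf10 and Klf11, and in 23.2% of all genes. Control replicate 2 held the highest value in Klf2 and Klf6 but the lowest in Klf13. Deviations from the gene mean in control replicate 1 reached -0.385 for Klf6 and -0.381 for Klf4, whereas Klf13 was at -0.014 there. No single library held the lowest or the highest value in every member.

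**Figure D2:**
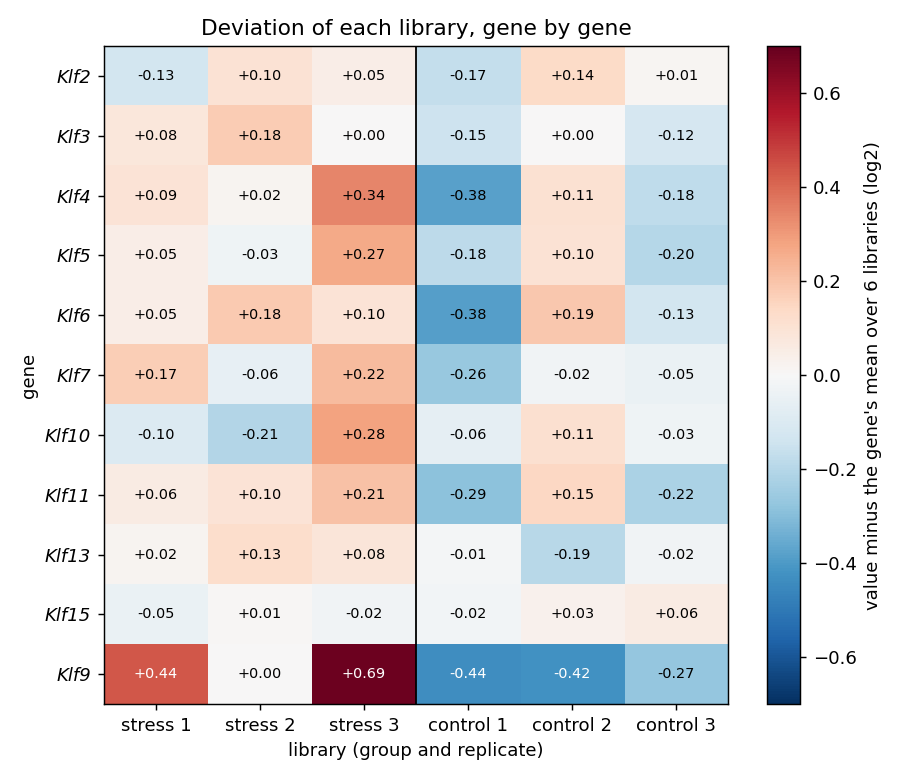
Value of each gene (rows, the 10 members and Klf9) in each library (columns, stress left and control right) minus the gene's mean over the 6 libraries, on the log2 scale. Control replicate 1 is the lowest library in 6 members, and control replicate 2 stands above the mean in Klf4, Klf5, Klf6 and Klf11 and below it in Klf13.

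The count of members with a small p changed with the library left out. Without control replicate 2 there were 6 members with an unadjusted p under 0.05, Klf3, Klf4, Klf5, Klf6, Klf7 and Klf11, where 14.6% of all genes had one. The groups then did not overlap in 6, against 35.2% of all genes. Without control replicate 1 the count was 1, Klf13 (16.5% of all genes), and without control replicate 3 it was 0 (11.4%). Leaving out stress replicate 1, 2 or 3 left 1 member each, Klf13, Klf7 and Klf3 in that order, where 14.3%, 16.9% and 13.9% of all genes had such a p. Stress replicate 3 had the lowest muscle, fibroblast and adipocyte marker means (7.46, 11.15 and 5.10) and the highest neutrophil mean (7.35). The part of these tissues in the counts was not tested. Without that library the groups did not overlap in 3 members, Klf3 and Klf13 higher in stress and Klf10 lower, against 33.9% of all genes. No member passed the adjusted threshold in any of these fits.

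**Figure D3:**
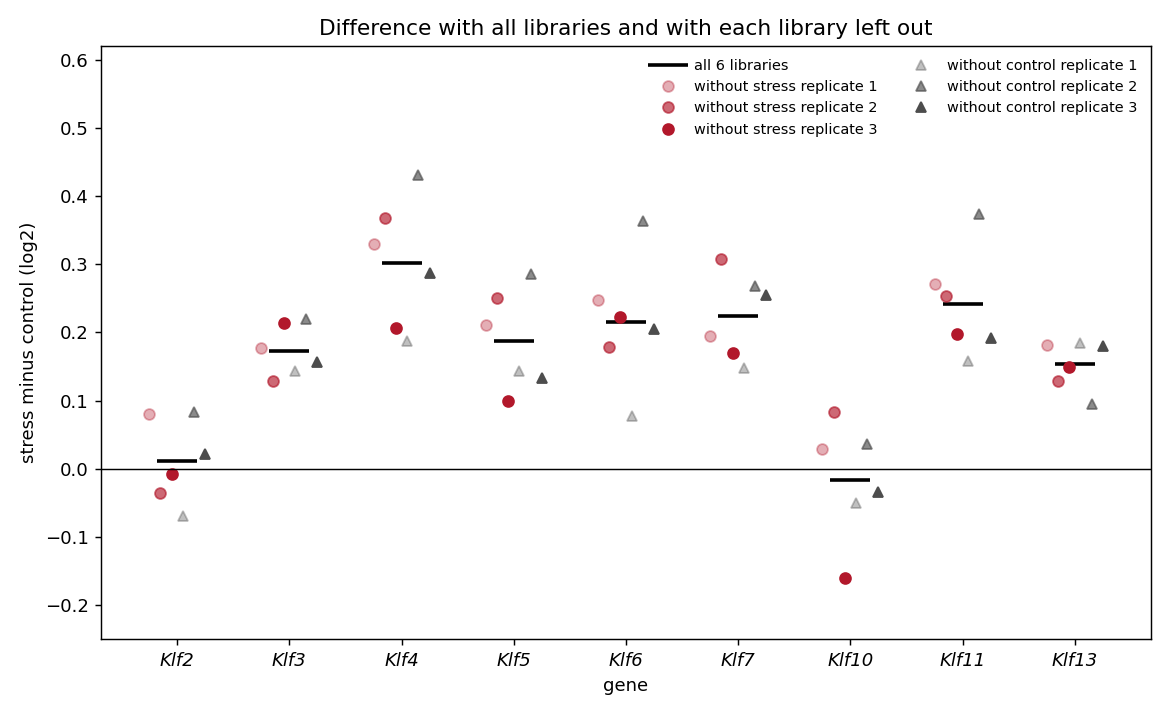
Stress minus control difference on the log2 scale (vertical axis) for the 9 members tested (horizontal axis), with all 6 libraries (black dash) and with each library left out (circles for stress, triangles for control). Klf3 and Klf13 stay above 0 throughout with the narrowest spans, and Klf2 and Klf10 lie on both sides of 0.

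Klf9, which is widely induced by glucocorticoids, had 9.84, 9.41 and 10.10 in stress, against 8.97, 8.99 and 9.14 in control. All stress libraries lay above all controls and the difference was 0.75 ± 0.16 (SE; 1.68-fold, limma adjusted p = 0.12), not called either. The largest difference among the 10 members was 0.30, in Klf4. Stress replicate 3 was highest for both genes. Whether Klf9 and the members differ in their response was not tested.

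Klf16, a Sin3A-binding relative of Klf9 and Klf13, had 8.05, 8.21 and 8.31 in stress, against 8.44, 8.53 and 8.46 in control. It lay lower in every stress library, by -0.28 ± 0.079 (SE; unadjusted p = 0.00824, limma adjusted p = 0.159). Of the other 3 KLF genes, Klf1 and Klf14 lay below the lowest mean tested, Klf1 with means of 2.09 in stress and 2.10 in control, and Klf17 was listed at 0.

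The SP factors bind the same GC boxes. Of the 9 SP genes, 5 were tested, 4 were higher and 1 lower in stress, and none was called or had an unadjusted p under 0.05. Sp1 had 11.43, 11.52 and 11.42 in stress, against 11.37, 11.35 and 11.37 in control, and differed by 0.097 ± 0.048 (SE; limma adjusted p = 0.346). Sp3 differed by 0.11 ± 0.057 (adjusted p = 0.348), Sp4 by 0.12 ± 0.10 (0.582), Sp2 by 0.0067 ± 0.078 (0.975) and Sp6 by -0.11 ± 0.056 (0.372), each as a log2 difference with its SE and limma adjusted p. The groups did not overlap in Sp1, higher in stress, and in Sp6, lower in stress (5.97 to 5.98 in stress, against 6.02 to 6.14 in control), as in 12.1% and 12.3% of all genes tested. Sp5, Sp7, Sp8 and Sp9 were too weak to test.

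**Figure D4:**
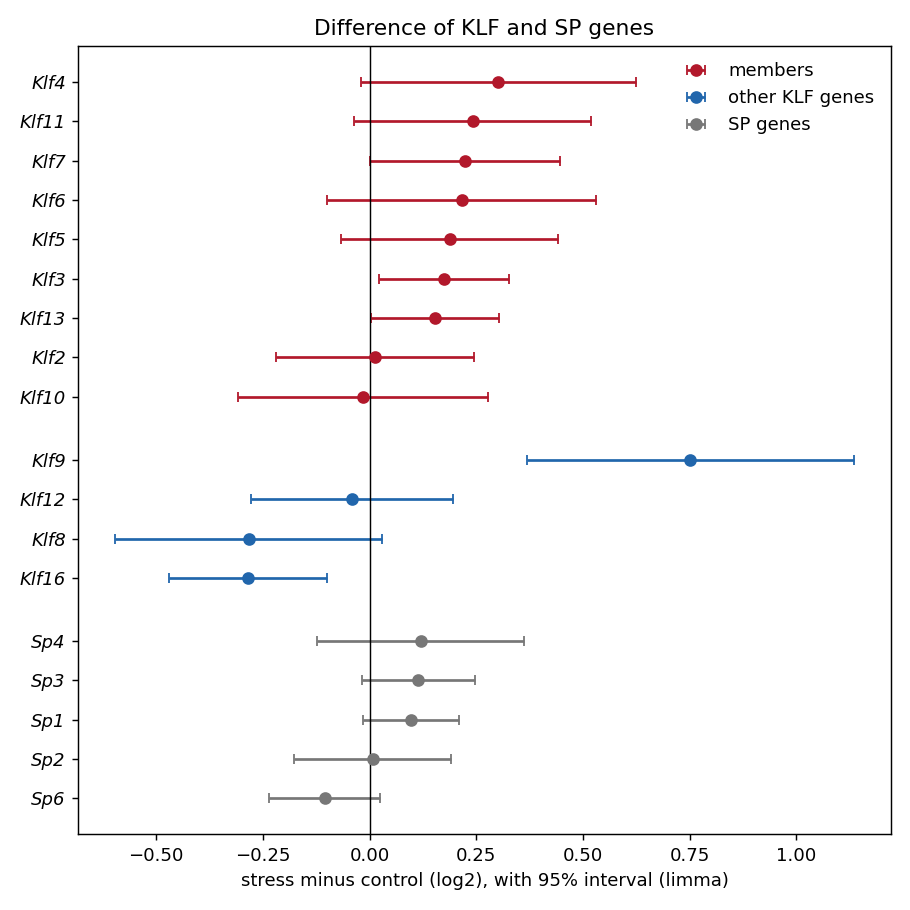
Stress minus control difference (horizontal axis, log2) with its 95% interval from limma for the 9 members tested, 4 other KLF genes and 5 SP genes (rows, in order of the difference within each group). The members run from -0.016 (Klf10) to 0.30 (Klf4), and Klf9 stands at 0.75.

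Genes that act with the family were described from the same fit, and none was called. Of 12 cofactors, 7 were higher and 5 lower in stress, with a median difference of 0.018. At an unadjusted limma p under 0.05 there were 1 higher and 2 lower, where 8.26% and 9.15% of all genes tested were. Crebbp, the acetylase CBP, had 10.81, 10.87 and 10.95 in stress, against 10.54, 10.65 and 10.58 in control, without overlap (0.29 ± 0.056 SE, limma adjusted p = 0.11). Hdac2, a deacetylase of the Sin3 complex, had 11.09, 10.97 and 10.98 in stress, against 11.25, 11.26 and 11.13 in control (-0.20 ± 0.059 SE, limma adjusted p = 0.17). These 2 are named as the cofactors of smallest p, not for their function.

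The MEK5, ERK5 and MEF2 genes, which drive Klf2 and Klf4 in endothelium, had 3 higher and 2 lower among 5 and a median of 0.027. Mef2d was 0.17 ± 0.068 higher (SE; limma adjusted p = 0.255) and Mef2a 0.11 ± 0.055 higher (SE; limma adjusted p = 0.358). Of 8 vascular and lymphoid targets of Klf2 and Klf4, 3 were higher and 5 lower, with a median of -0.14. Nos3, the endothelial nitric oxide synthase that Klf2 induces, had 7.61, 7.56 and 7.61 in stress, against 7.79, 7.86 and 8.04 in control (-0.30 ± 0.077 SE, limma adjusted p = 0.147). Adm, the vasodilator adrenomedullin, had 8.37, 8.38 and 8.87 in stress, against 7.35, 8.16 and 7.64 in control (0.82 ± 0.22 SE, limma adjusted p = 0.159). In both genes the groups did not overlap, as in 24.3% of all genes tested. The endothelial markers given above also stood lower, and their part in the Nos3 values was not tested.

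Of 7 early response genes of TGF-beta, the inducer of Klf10 and Klf11, 4 were higher and 3 lower, with a median of 0.099. Tgif1, a corepressor of SMAD proteins, had 11.57, 11.49 and 11.78 in stress, against 11.22, 11.31 and 11.35 in control (0.32 ± 0.080 SE, limma adjusted p = 0.144). Pmepa1, an inhibitor of the pathway, was lower (-0.17 ± 0.068 SE, limma adjusted p = 0.255). Of 7 genes listed for the metabolic role of Klf15, 3 were higher and 4 lower, with a median of -0.026. Acss2, the cytosolic relative of the mitochondrial acetyl-CoA synthetase that Klf15 induces, was 0.16 ± 0.061 higher (SE; limma adjusted p = 0.246), and Slc2a4, the insulin-responsive glucose transporter of muscle and fat, was lower (-0.15 ± 0.072 SE, limma adjusted p = 0.339).

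Of 12 further target genes, 3 were higher and 9 lower, with a median of -0.043. Lgals3, the galectin-3 gene that Klf3 represses in mouse cells, had 11.83, 11.82 and 12.50 in stress, against 11.19, 11.33 and 11.29 in control. Its groups did not overlap and it differed by 0.78 ± 0.18 (SE; limma adjusted p = 0.129), in the same direction as Klf3. Ccnb1, the mitotic cyclin that Klf4 represses, averaged 9.91 ± 0.11 in stress and 10.19 ± 0.054 in control (SD, n = 3 each; -0.28 ± 0.067 SE, limma adjusted p = 0.137), without overlap. Any part of Klf3 in the Lgals3 values, or of Klf4 in the Ccnb1 values, was not tested. Of 6 genes of KLF protein turnover, 4 were higher and 2 lower, with a median of 0.049. Wwp1, a ubiquitin ligase of Klf2 and Klf5, was 0.19 ± 0.075 higher (SE; limma adjusted p = 0.255), and Btrc, an F-box protein, was 0.14 ± 0.066 higher (SE; limma adjusted p = 0.324).

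Cell type markers give the setting of these values. Tumour epithelium, where Klf4 and Klf5 are expressed, had 4 markers higher and 4 lower in stress and a mean log2 value of 11.12 to 11.42 in stress libraries and 11.23 to 11.39 in control libraries, with none of the 8 at 0. Neutrophil markers averaged 6.77 to 7.35 in stress libraries, with stress replicate 3 highest, and 6.49 to 6.64 in control libraries; 6 of 7 tested were higher. Fibroblast markers averaged 11.15 to 11.41 in stress libraries, with stress replicate 3 lowest, and 11.35 to 12.12 in control libraries. Among controls, replicate 2 was highest and replicate 1 lowest, and 8 of 9 markers were lower in stress. Macrophage markers averaged 11.01 to 11.25 in stress libraries and 10.92 to 11.28 in control libraries, with control replicate 1 lowest and control replicate 2 highest. T and NK cell markers averaged 6.51 to 6.90 in stress libraries and 6.43 to 6.89 in control libraries, and the B cell markers, too weak to test, 3.02 to 3.04 in stress libraries and 3.03 to 3.09 in control libraries. No marker of these lists was at exactly 0 and none was called. The neutrophil marker Ly6g, at -0.104 to -0.055, was too weak to test but is part of the neutrophil mean. The part of these cells in the members' values was not tested.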

How the data were processed

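The series holds 12 libraries, and the 6 mRNA libraries were used; the miRNA table was not used here. The deposited mRNA table holds log2 values that the authors had normalized (-1.97 to 17.85); the base is not stated and was taken as 2. Build mm10 and the tools bcl2fastq and kallisto 0.46.1 are named, per the submitters' processing notes, with the normalization not given in the sources used here. Groups and replicate numbers came from the titles.

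Of 35453 rows, 12658 at 0 in all libraries and 26 named by a calendar date were left out, and 14098 of 22769 genes had a mean log2 value of at least 4. Stress was compared with control by limma 3.58.1 (trend, robust, R 4.3.3), two-sided, without covariates. The Benjamini-Hochberg adjustment covered all genes tested, and the threshold was 0.05. An exact permutation test of 3 against 3 cannot go below 0.1. The script was tested on simulated data. No 2 libraries held identical values.

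The members and lists were chosen with earlier results of these data known. All members, all other tested KLF and SP genes, and the 2 genes of smallest p in each list of partners or targets are named. Gene positions are from GENCODE M21 (GRCm38, the assembly of mm10).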

Additional observations from a re-analysis of the deposited data

How the results depend on the processing

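No member was called in any of the 13 alternative fits, and the 7 members with differences of 0.15 or more stayed above 0 in all of them. When single libraries were left out, Klf2 ran from -0.0686 to 0.0832 and Klf10 from -0.16 to 0.0837. Klf2 was negative without control replicate 1 (-0.0686), stress replicate 2 (-0.0356) and stress replicate 3 (-0.00834). Klf10 was positive without control replicate 2 (0.0368), stress replicate 1 (0.0292) and stress replicate 2 (0.0837). After quantile normalization 8 genes were called, 5 of them lower, and 0 members had an unadjusted p under 0.05 or groups apart. Median centring gave 2 members with groups apart, a lowest mean of 6 gave 11 genes called, 7 of them lower, and without a variance trend 1 member had an unadjusted p under 0.05. The cause of these shifts was not tested.

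Without single libraries the called genes numbered 0 to 5 (higher 0 to 4, lower 0 to 2), the members with an unadjusted p under 0.05 numbered 0 to 6, those with groups apart 1 to 6, and the median difference ran from 0.144 to 0.268. With the replicate number as a block 0 genes were called, 0 higher and 0 lower, and 1 member, Klf3, had an unadjusted p under 0.05, as had 16.3% of all genes. Same-numbered libraries did not deviate together (correlations -0.079, 0.0815 and -0.0183 for numbers 1 to 3), not every library correlated best with its own number, and the numbers were not taken as pairs. Depth is unknown, so no counting error can be given.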
